A study of Rattus norvegicus with 69 samples.

Results

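The replication fork polymerase and clamp genes are represented here by Pcna, Rfc3, Rfc4, Pola2, Prim1, Pole, Cdc45, Gins1 and Rrm1, with every probe set that the array's annotation gives to one of these symbols. They came to 12 probe sets of 9 genes, out of 31042 probe sets and 14217 genes. Cdc45 had 4 probe sets and each other gene had 1. The series holds 69 rat samples (Sprague Dawley), each on 1 Affymetrix array, and the labels name no genetic change and no drug in any group. Of these, 49 were seminiferous tubules, sorted by their look under transmitted light into 10 groups of stages of the spermatogenic cycle. Stages I, VI, VIII and XII stood alone, stages II-III, IV-V, IX-XI and XIII-XIV were joined, and stage VII was split into VIIa.b and VIIc.d. Stage IV-V had 4 samples and every other stage group 5. A tubule sample pooled tubules of 2 rats aged 55 to 60 days, so that it holds Sertoli cells and all germ cells of its stage. The isolated cells were Sertoli cells, round spermatids and pachytene spermatocytes, 4 samples each, from rats of that age. A further 3 samples held spermatogonia plus early spermatocytes, which came from younger rats of 18 to 20 days. Their purity is given as about 85% for Sertoli cells and 85% to 95% for germ cells. The remaining 5 samples were whole testis, with no age in the labels. For stage IX-XI the titles and the source names disagree on whether stage XII tubules were included, and the labels do not settle it.

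In dividing cells, the helicase that opens the double helix works only when Cdc45 and the GINS complex, of which Gins1 is a subunit, are bound to it. DNA polymerase alpha, of which Pola2 is the accessory subunit, starts each new strand with the primase Prim1. The clamp loader, of which Rfc3 and Rfc4 are subunits, then places the ring-shaped clamp Pcna on DNA, where it holds the copying polymerases, among them Pole, the catalytic subunit of polymerase epsilon. Rrm1 is the large subunit of ribonucleotide reductase, which makes the deoxynucleotides. In the testis, spermatogonia copy their DNA before each division and preleptotene spermatocytes copy it once more before meiosis, while pachytene spermatocytes repair programmed breaks and round spermatids are haploid and do not replicate.

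The promoters of 5 members are shown because their genes make up the patterns described next: Pcna and Cdc45 moved together over the stages, as did Rfc3 and Rfc4, and Pola2 had the widest range. Each runs from 250 bases before to 50 bases after the start site in the RefSeq table of the rat assembly GRCr8, which held all 9 genes. They lie at chr3:139955771-139956070 on the minus strand (Pcna), chr11:95689928-95690227 on the plus strand (Cdc45), chr12:5836318-5836617 on the plus strand (Rfc3), chr11:91254023-91254322 on the plus strand (Rfc4) and chr1:212680493-212680792 on the minus strand (Pola2). For Cdc45, Rfc3, Pola2, Prim1 and Pole the start site used lies inside the gene interval given further below, and the Cdc45 window lies wholly within it. Positions of words in these promoters are relative to that site, not to the end of the gene interval. Capitals mark matches, on either strand, to the E2F words TTTGGCGC, TTTCCCGC, TTTGCCGC and TTTCGCGC and to CCAAT, the word of the factor NF-Y.
Pcna: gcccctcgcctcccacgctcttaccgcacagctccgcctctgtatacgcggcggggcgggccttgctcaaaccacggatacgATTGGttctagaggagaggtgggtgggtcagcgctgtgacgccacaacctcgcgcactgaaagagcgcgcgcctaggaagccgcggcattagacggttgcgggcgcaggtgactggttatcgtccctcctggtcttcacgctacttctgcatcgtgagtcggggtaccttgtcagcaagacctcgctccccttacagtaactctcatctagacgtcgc
Cdc45: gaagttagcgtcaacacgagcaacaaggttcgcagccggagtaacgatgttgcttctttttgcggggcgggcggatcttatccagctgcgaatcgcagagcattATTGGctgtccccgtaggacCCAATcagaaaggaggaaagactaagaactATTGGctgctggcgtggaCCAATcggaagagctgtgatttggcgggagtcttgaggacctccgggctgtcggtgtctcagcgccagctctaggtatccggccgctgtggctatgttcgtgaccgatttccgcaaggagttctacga
Rfc3: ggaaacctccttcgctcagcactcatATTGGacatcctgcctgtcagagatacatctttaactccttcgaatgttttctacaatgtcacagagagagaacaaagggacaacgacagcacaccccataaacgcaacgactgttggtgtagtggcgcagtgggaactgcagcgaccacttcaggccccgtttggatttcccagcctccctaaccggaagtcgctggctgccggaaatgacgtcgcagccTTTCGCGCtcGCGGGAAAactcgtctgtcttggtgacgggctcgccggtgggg
Rfc4: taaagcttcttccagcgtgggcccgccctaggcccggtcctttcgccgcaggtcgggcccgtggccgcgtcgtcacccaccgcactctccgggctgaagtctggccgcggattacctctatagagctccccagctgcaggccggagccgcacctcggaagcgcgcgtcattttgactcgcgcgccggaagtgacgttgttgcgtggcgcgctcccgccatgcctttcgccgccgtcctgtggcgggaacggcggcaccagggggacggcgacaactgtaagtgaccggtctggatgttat
Pola2: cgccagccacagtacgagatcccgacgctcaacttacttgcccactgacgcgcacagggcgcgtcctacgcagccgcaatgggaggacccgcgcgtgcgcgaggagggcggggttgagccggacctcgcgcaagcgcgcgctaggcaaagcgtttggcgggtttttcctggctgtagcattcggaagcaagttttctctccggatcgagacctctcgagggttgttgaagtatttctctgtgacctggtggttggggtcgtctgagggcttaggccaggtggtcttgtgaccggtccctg
An E2F word was found in 3 of the 9 promoters, those of Rfc3, Pole and Gins1, against 2.1% of all 33469 promoters in the table. It was found in 19 of 44 promoters of the other replication genes listed further below. The Rfc3 promoter held 2 of them, beginning at base -3 and at base 8 relative to the start site. CCAAT was found in 7 of 9, against 37.5% of all promoters, and 4 times in that of Cdc45, at bases -146, -126, -96 and -78. The 2 without it were Rfc4 and Pola2, which also held no E2F word. The GC box GGGCGG was found in 6 of 9 (33.1% of all), and TTTGAA or TTCGAA, words of the cell cycle element CHR, in Rfc3 and Rrm1, 2 of 9 (19.7% of all). No match of one motif overlapped a match of another in these 9 promoters. These are matches of letters only, and such words also occur without a bound factor. Only the 4 E2F words given were looked for, so a promoter said to hold none may hold another form of the site. Of the genes that moved together, Pcna and Cdc45 both held CCAAT and no E2F word, whereas Rfc3 held both kinds of word and Rfc4 neither.

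Values are array signals on a linear scale, scaled to one average per array. Their log2 was taken after adding 5.11, the 10th percentile of the table, which draws differences between weak signals toward 0. Differences are between means of log2 values and need not match the ratio of the mean signals printed beside them. Testing required 3 or more samples of a fit with a signal above 43.7, the table's median. This left 11 of the 12 member probe sets, covering all 9 genes, in each of the 3 fits (tubules, isolated cells, and tubules with whole testis). The one left out, Cdc45 probe set 1384108_at, lay between 0.589 and 12.2 in all 69 samples. The signals of different probe sets cannot be set against each other, since probes differ in brightness. Where groups are said not to overlap, this is a description only, since the share of all probe sets so separated was not counted.

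The arrays' median signals ran from 30.9 to 58.2 and averaged 31.4 in Sertoli cells. Round spermatids averaged 36.3, pachytene spermatocytes 37.3, and spermatogonia plus early spermatocytes 49.6. The ratio of 3' to 5' actin signal, a measure of RNA quality, was 1.26 to 3.64, highest in replicate 3 of spermatogonia plus early spermatocytes. In the tubules, 6 of 6 round spermatid markers summed to 13839.7 on average at stage VI and to 3208 at stage I. Markers of dividing cells (Mki67, Top2a, Ccnb1, Cdk1, Plk1) summed to 3526 at stage I and 1190.4 at stage VIII. In isolated cells they averaged 2690.3 in round spermatids and 2396 in pachytene spermatocytes. Spermatogonia plus early spermatocytes had 1742 and Sertoli cells 729.8, so that this list did not single out replicating cells. The preparation of spermatogonia plus early spermatocytes had the highest Kit, at 107 to 184, but markers of other cells were present in it. The 5 measured spermatogonia markers summed to 1401 to 1767 in Sertoli cells, 159 to 199 in pachytene spermatocytes and 714 to 1081 in spermatogonia plus early spermatocytes, so that this list did not single out the preparation named for these cells. The 7 Leydig cell markers summed to 5730.2 to 7586 in Sertoli cells, 227 to 436 in pachytene spermatocytes and 6508 to 9982 in spermatogonia plus early spermatocytes. The 8 measured Sertoli cell markers summed to 510.1 to 678 in pachytene spermatocytes and to 2325 to 3459.6 in spermatogonia plus early spermatocytes. Macrophage and blood markers, 6 in all, summed to 99.8 to 118 in pachytene spermatocytes and to 1834 to 2325 in spermatogonia plus early spermatocytes.

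Over the cycle of the seminiferous epithelium, the replication genes did not move as a unit. Pcna was highest in stages VI, VIIa.b and VIIc.d, and Cdc45 in stages VI and VIIa.b. Rfc3, Rfc4, Prim1 and Rrm1 were highest in stage IX-XI. Pola2 was highest in stage I and lowest in stage VI, where Pcna peaked. By limma's F-test over the 10 stages, with an adjusted p under 0.05 and at least 2-fold between the highest and lowest stage means, 6 of 11 member probe sets were stage-regulated, 1 each of Pcna, Rfc3, Pola2, Prim1, Cdc45 and Rrm1, against 32.5% of the 22258 probe sets tested. The F-test alone was passed by 10 of 11, against 54.3% of all, and the median log2 range was 1.06 in the members and 0.89 in all. In pooled tissue, fewer cells of a type and less RNA per cell cannot be told apart.

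**Figure D1:**
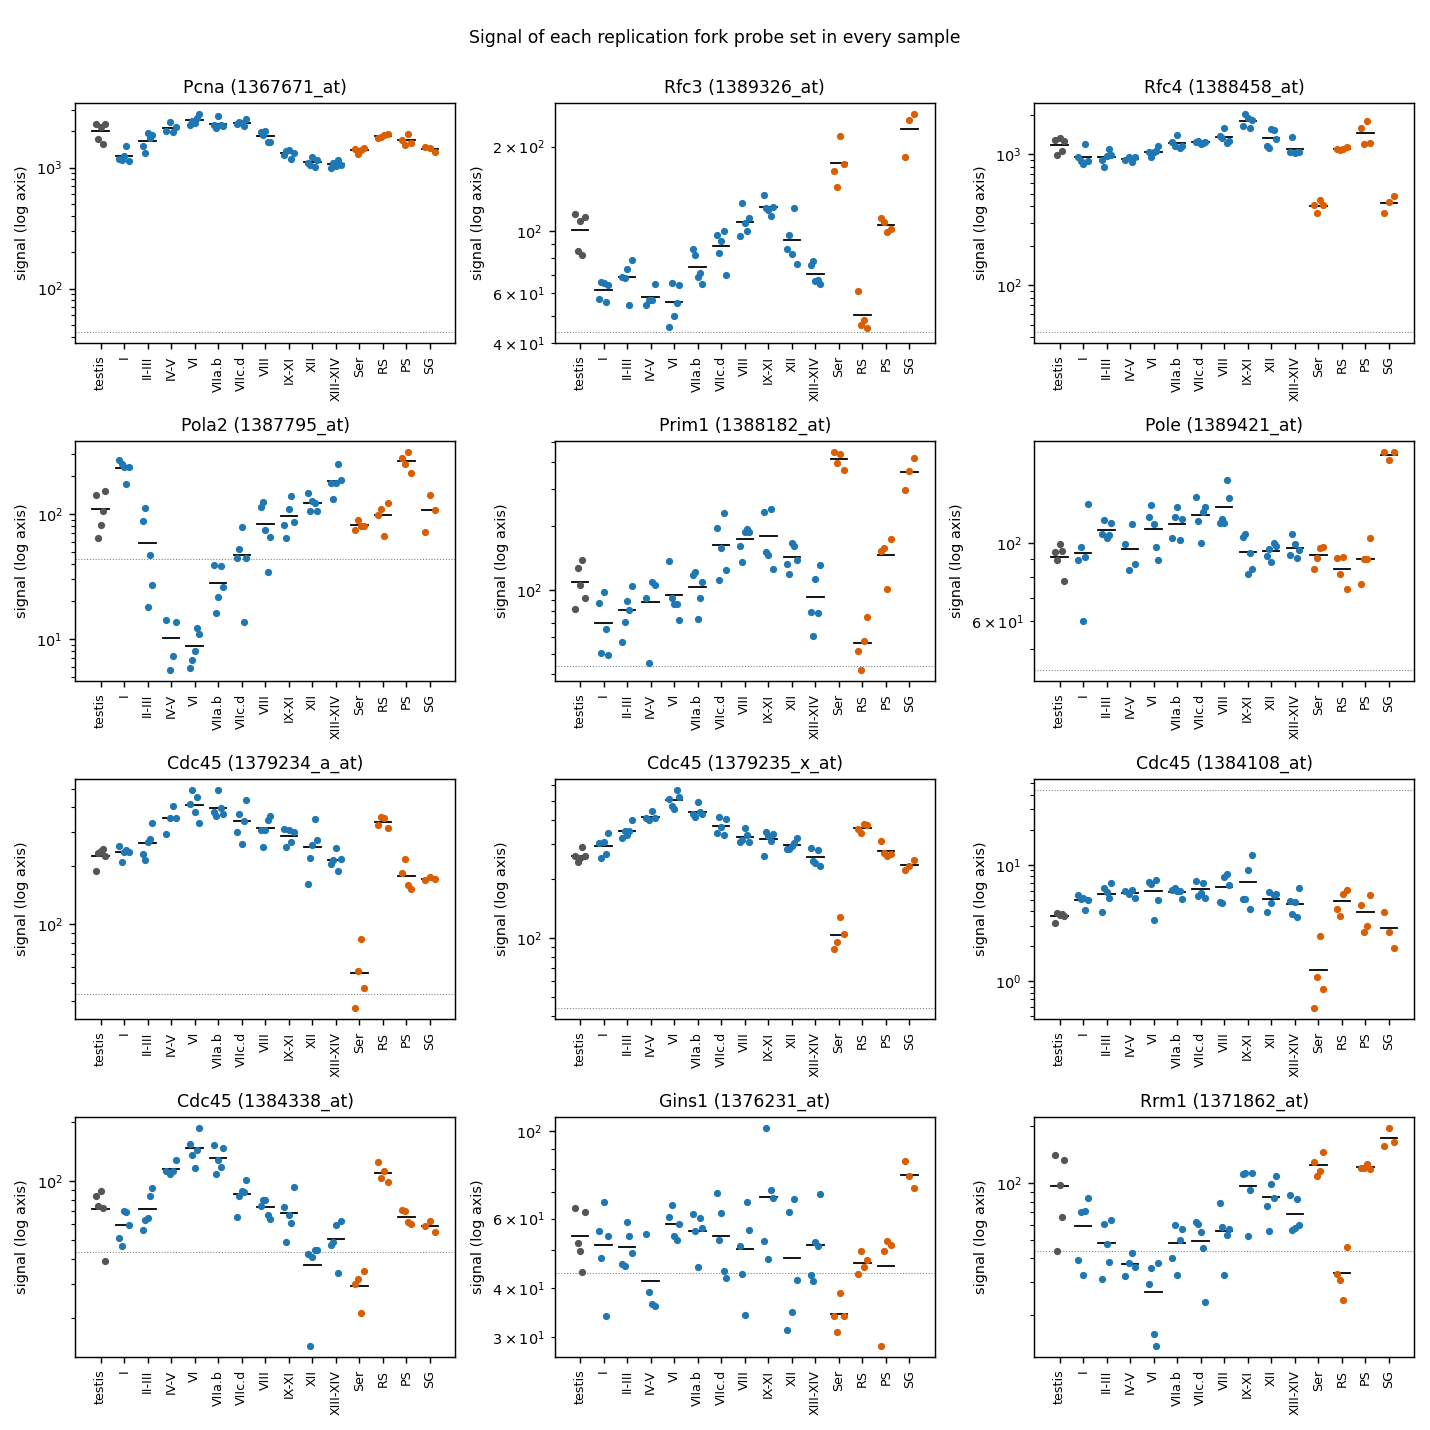
Signal of each of the 12 probe sets in every sample, on a log axis, with a bar at each group's mean: whole testis (grey), the 10 stage groups (blue), and isolated Sertoli cells (Ser), round spermatids (RS), pachytene spermatocytes (PS) and spermatogonia plus early spermatocytes (SG) (orange). The dotted line is at 43.7. Pola2 lies between 5.64 and 14.2 in stages IV-V and VI and between 173 and 269 in stage I, and Cdc45 1384108_at lies under the line everywhere.

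Pcna, the clamp (probe set 1367671_at, gene at chr3:139951948-139955820), had stage means, from I to XIII-XIV, of 1239.9, 1667, 2123, 2457, 2295, 2349, 1815, 1307, 1107 and 1065. The 5 samples of stage VI had 2235, 2407, 2329, 2551 and 2764, and the 5 of stage XIII-XIV had 995, 1094, 1024, 1164 and 1047. Every stage VI sample was thus above every stage XIII-XIV sample, with a 2.30-fold difference of the means on the log2 scale (limma F-test, adjusted p = 7.35e-21). Its steps between neighbouring stages were too small for a call: stage II-III was 0.42 ± 0.09 (SE) log2 units above stage I and stage IV-V 0.36 ± 0.09 above stage II-III. After stage VIIc.d it dropped by 0.38 ± 0.09 at stage VIII and by a further 0.47 ± 0.09 at stage IX-XI, the limma adjusted p of these 4 steps lying between 7.26e-05 and 0.00628. With the stages ranked by mean, neighbours in the ranking overlapped in their samples in all members, except below stage IX-XI of Rfc4, stage VIIa.b of Pola2 and stage IV-V of Cdc45 1384338_at.

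Cdc45, which activates the helicase (gene at chr11:95689702-95714980), followed the same course in each of its 3 measurable probe sets. Probe set 1379235_x_at had stage means of 295, 352, 415, 505, 440.1, 372, 325, 319, 298 and 257 from I to XIII-XIV. Its stage VI samples had 511, 471, 452, 568 and 525, against 288, 246, 240.2, 280.1 and 232 in stage XIII-XIV. These groups did not overlap, but the range, 1.95-fold, fell just short of the 2-fold limit, as did the 1.90-fold range of 1379234_a_at. Probe set 1384338_at was stage-regulated, with 147 ± 25.5 (SD) in stage VI and 37.4 ± 12.9 in stage XII, a 3.75-fold range (limma, adjusted p = 2.37e-12). Its lowest stage rests in part on replicate 3 of stage XII, at 14.4, where the others had 40.9 to 44.5. Probe sets 1379234_a_at and 1379235_x_at carry the same accession in the array's annotation and are not independent, and an _x_at set may also bind related sequences.

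Across the 10 stage means, Pcna correlated with the 3 Cdc45 probe sets at Pearson's r = 0.91 to 0.93. Both also moved with the summed round spermatid markers, at r = 0.95 for Pcna and 0.89 to 0.96 for Cdc45. The points of these correlations share their arrays and neighbouring stages share cells, so they are descriptions only. The part of round spermatid content in the stage pattern was not tested.

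**Figure D2:**
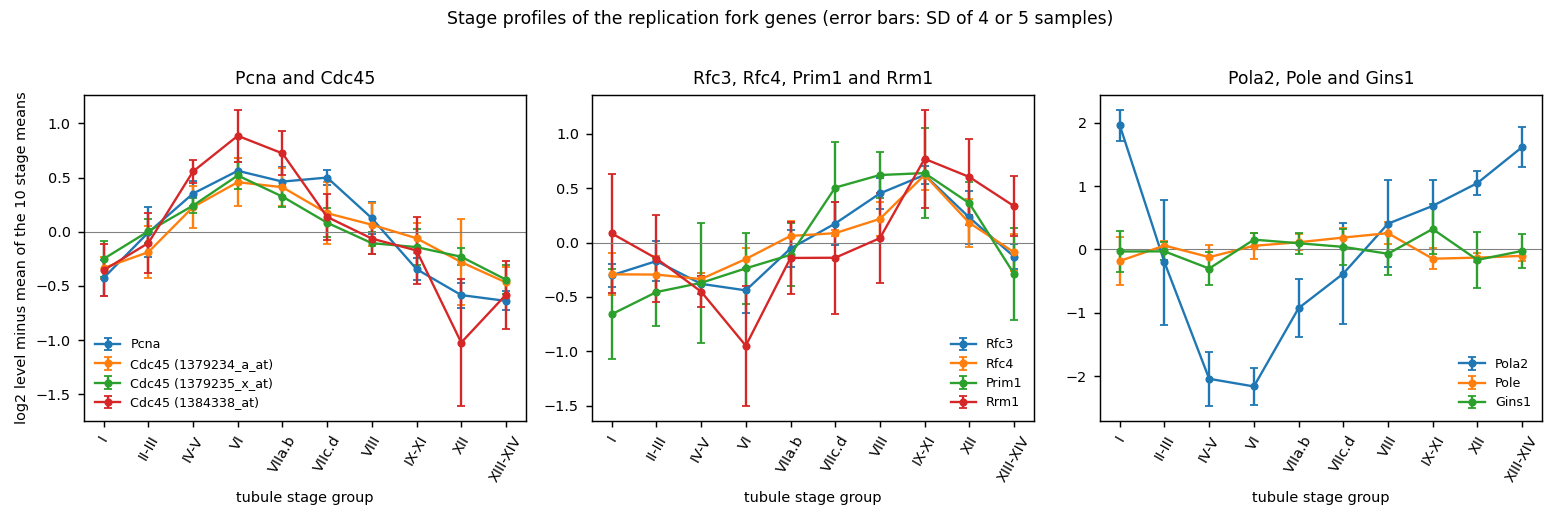
Stage means of the 11 tested probe sets as log2 of the signal plus 5.11, minus the mean of the 10 stage means, with the SD of 4 or 5 samples as error bars. Pcna and Cdc45 (left) peak in stage VI, Rfc3, Rfc4, Prim1 and Rrm1 (middle) in stage IX-XI, and Pola2 (right, on a wider axis) is lowest in stage VI, while Pole and Gins1 stay near 0.

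The clamp loader subunits were highest later in the cycle. Rfc4 (1388458_at, gene at chr11:91254273-91268727) had means of 953, 949.8, 918, 1046, 1214, 1232, 1355, 1794, 1328 and 1096 from stage I to XIII-XIV. Stage IX-XI samples had 1643, 2025, 1877, 1595 and 1829. All of them exceeded the highest sample of stage VIII, 1593, and of stage XII, 1555. Relative to its neighbours, Rfc4 in stage IX-XI was 0.40 ± 0.09 log2 units above stage VIII (limma, adjusted p = 0.00147), and stage XII was 0.44 ± 0.09 below stage IX-XI (adjusted p = 0.00107). Its whole range, 1.94-fold, did not reach the call's limit. Replicate 1 of stage XIII-XIV, at 1345, stood apart from the others at 1027 to 1039.

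Rfc3 (1389326_at, gene at chr12:5836546-5847331) had a weaker signal and the same peak, with means of 61.8, 68.5, 58.3, 56.1, 74.5, 88.5, 108, 122, 92.6 and 70.4. Its stage IX-XI samples had 134, 121, 119, 113 and 122, and its stage VI samples 45.6, 65.4, 49.9, 55.3 and 64.3. The groups were apart, 2.08-fold on the log2 scale (adjusted p = 6.63e-11). With 16 added before log2 in place of 5.11, the range was 0.94 log2 units and the call was lost.

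Prim1, the catalytic primase subunit (1388182_at, gene at chr7:1031436-1047134), had means of 70.1, 80.3, 88.3, 94.5, 103, 164, 173, 180.1, 144 and 92.5 over the same stages. In stage IX-XI the samples had 234, 151, 147, 242 and 126, and in stage I they had 87, 50.7, 97.9, 65.5 and 49.6. The ranges 126 to 242 and 49.6 to 97.9 did not overlap, and the fold was 2.46 (adjusted p = 1.61e-07). The 3 highest stages, VIIc.d, VIII and IX-XI, overlapped and cannot be ordered.

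Rrm1, the reductase subunit (1371862_at, gene at chr1:166235904-166260206), had means of 59.4, 48.5, 37.2, 26.4, 48.2, 49.6, 56, 96.8, 84.5 and 68.7. Stage IX-XI samples had 112, 113, 52.4, 92.4 and 113, and stage VI samples 29.4, 35.6, 15.8, 13.7 and 37.8. They did not overlap, with a 3.30-fold range (adjusted p = 6.14e-06), although many of its values lay under 43.7. Its samples in stages XII (56.1 to 109) and XIII-XIV (56.8 to 86.3) also lay above all those of stage VI.

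Among these 4 genes, Rfc3 correlated with Rfc4 at r = 0.92 and with Prim1 at r = 0.91 over the 10 stage means, while Rrm1 correlated with Rfc3 at 0.72, with Rfc4 at 0.64 and with Prim1 at 0.45. Rfc3 and Prim1 moved with the summed spermatogonia markers (5 of 8 measured), at r = 0.91 and 0.88. Those markers summed to 626 at stage VIII and 308 at stage VI, and, as given above, to more in Sertoli cells than in spermatogonia plus early spermatocytes. Sertoli cell markers correlated with Prim1 at 0.85, with Rfc4 at 0.76 and with Rfc3 at 0.75. Elongating spermatid markers correlated with Rfc4 at 0.90, with Rfc3 at 0.81 and with Prim1 at 0.72. Dividing cell markers went the other way, at -0.88 with Prim1, -0.75 with Rfc4 and -0.69 with Rfc3. Of the 5 arrays of stage IX-XI, 2 had high actin 3' to 5' ratios. Without those and the other arrays with high ratios, which were replicates 2 and 3 of stage VIIc.d among the tubules, the count of members called was also 6. The part of these cell types in the pattern was not tested.

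**Figure D3:**
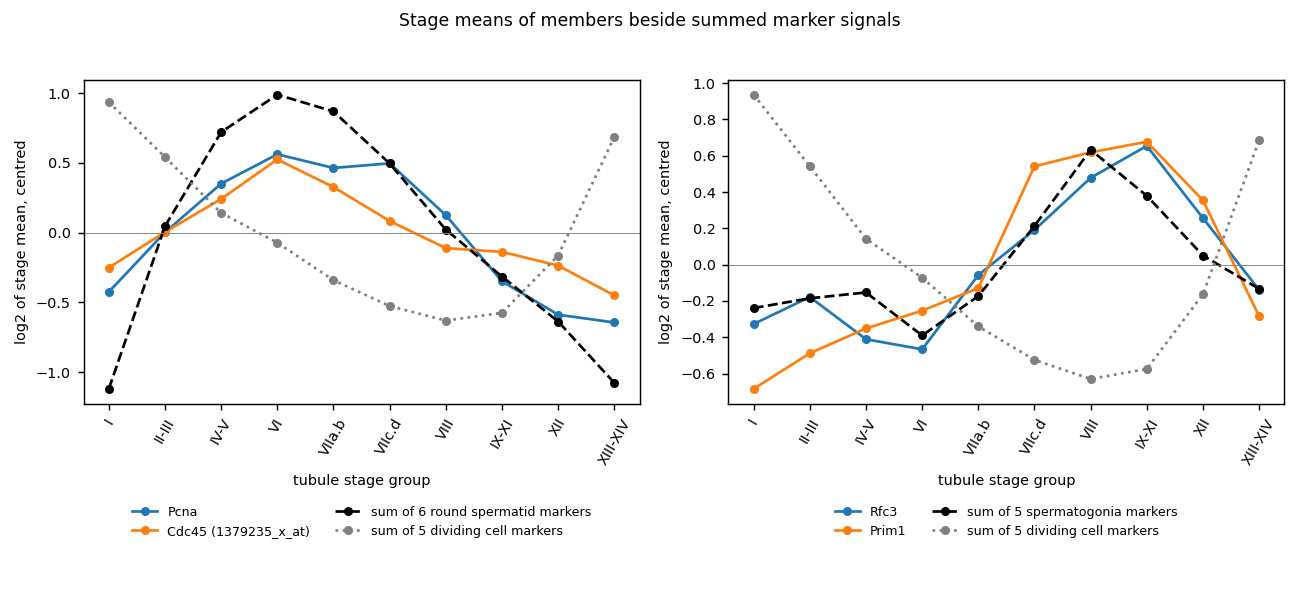
Log2 of the stage means of 4 members and of summed marker signals, each centred on its own mean over the 10 stages. Pcna and Cdc45 (left) are high where round spermatid markers are, and Rfc3 and Prim1 (right) are high at stages VIII and IX-XI, where spermatogonia markers are high and dividing cell markers lowest.

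Pola2, the accessory subunit of polymerase alpha (1387795_at, gene at chr1:212656500-212680667), had the widest range of the members. Its means were 234, 58.2, 10.3, 8.77, 28.3, 46.9, 82.7, 96.2, 122 and 185 from stage I to XIII-XIV. Samples had 269, 253, 237, 173 and 238 in stage I, against 5.83, 6.77, 7.98, 12.3 and 11 in stage VI. The groups did not overlap (limma F-test, adjusted p = 4.09e-17). The table holds no detection calls, so the signals of stages IV-V and VI were not shown to lie above background, and the size of the range rests on the constant added: it was 4.11 log2 units with 5.11, 4.62 with 1 and 3.33 with 16. Stage II-III was the most spread, with 87.2, 112, 18.2, 46.8 and 26.9, all below the lowest stage I sample.

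Between neighbouring stages, Pola2 gave all 3 calls of the members in the 10 steps, where 1.71% of all tests gave a call. It fell by 2.16 ± 0.33 (SE) log2 units in stage II-III relative to stage I (limma, adjusted p = 1.07e-06), where 1.31% of probe sets fell. It fell by 1.83 ± 0.35 in stage IV-V relative to stage II-III (adjusted p = 0.000113, 0.822% fell). It rose by 1.23 ± 0.33 in stage VIIa.b relative to stage VI (adjusted p = 0.0075, 1.42% rose). The rise lay between weak signals, at 5.83 to 12.3 in stage VI and 16.1 to 39.3 in stage VIIa.b, all under 43.7. It depended on the constant: with 16 added before log2, the members gave 2 calls, 0 higher and 2 lower, so the rise was not called. Over the 10 stage means the r of Pola2 was -0.87 with Pcna, 0.80 with Rrm1 and -0.95 with the summed round spermatid markers.

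Pole, the catalytic subunit of polymerase epsilon (1389421_at, gene at chr12:52005155-52053761), was nearly level, with stage means between 93.5 in stage I and 126 in stage VIII. Its F-test passed (adjusted p = 0.0126) on a 1.35-fold range. The one step between neighbours that passed the adjusted p, without reaching 2-fold, was stage IX-XI, 0.40 ± 0.12 log2 units under stage VIII (limma, adjusted p = 0.0195), where samples had 81.5 to 106 against 114 to 150.4. Gins1, the GINS subunit (1376231_at, gene at chr3:160184920-160206334), lay near the table's median, with means between 41.5 in stage IV-V and 68 in stage IX-XI. Its 1.54-fold range did not pass (adjusted p = 0.302), and the highest single sample, 102 in stage IX-XI, had neighbours from 47.3 to 71.

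Early stages (I, II-III, IV-V and VI), in which intermediate and type B spermatogonia divide, were set against late stages (IX-XI, XII and XIII-XIV). Only Pola2 was called, with 77.8 in early and 134 in late stages, -1.72 ± 0.18 log2 units (SE; limma, adjusted p = 9.01e-12), where 3.59% of probe sets were called lower and 4.04% higher. The samples of early and late stages overlapped. Pola2 is also the member whose early stages differ most, from 5.64 to 269 in single samples. Without a fold limit, 9 of 11 probe sets passed, against 42.6% of all: Pcna (0.64) and the 3 Cdc45 probe sets (0.31 to 0.84) higher, and Rfc3 (-0.56), Rfc4 (-0.51), Prim1 (-0.67), Rrm1 (-0.94) and Pola2 lower. Without replicate 1 of stage IX-XI, Rrm1 was called as well, making 2. No member was called higher in early stages by limma, and 4 were higher at an unadjusted p under 0.05.

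In isolated cells, pachytene spermatocytes had more Rfc4 and Pola2 and less Rfc3 and Prim1 than spermatogonia plus early spermatocytes. By limma, 2 of 11 member probe sets were called higher, where 18.5% of the 20253 tested were, and 2 lower, where 28.6% were. Rfc4 had 1578, 1199, 1797 and 1217 in pachytene spermatocytes, against 356, 431 and 483 in spermatogonia plus early spermatocytes, a difference of 1.75 ± 0.14 log2 units (SE; adjusted p = 2e-09). Pola2 had 279.5, 249.8, 313 and 211 in pachytene spermatocytes, against 71.9, 142 and 108 in spermatogonia plus early spermatocytes (1.29 ± 0.21, adjusted p = 2.57e-05). In both genes every pachytene sample was above every sample of the younger preparation.

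The other clamp loader subunit went the opposite way. Rfc3 had 111, 108, 99.6 and 102 in pachytene spermatocytes, against 184, 249 and 261 in spermatogonia plus early spermatocytes (-1.09 ± 0.16, adjusted p = 8.24e-06). Prim1 had 152, 158, 101 and 174 in pachytene spermatocytes, against 297, 362 and 419 in spermatogonia plus early spermatocytes (-1.28 ± 0.19, adjusted p = 6.77e-06). Neither overlapped between the groups. Pole (-0.95 ± 0.14), Gins1 (-0.74 ± 0.20) and Rrm1 (-0.49 ± 0.17) passed the adjusted p under 2-fold, also lower, and Pcna (0.24 ± 0.10) higher, with adjusted p from 5.39e-06 to 0.0391. Pole had 76.5 to 103 in pachytene spermatocytes and 171 to 180.3 in spermatogonia plus early spermatocytes.

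These results meet limits of the preparations. The groups differ in age as well as cell type, which cannot be told apart, and Leydig, Sertoli and macrophage markers were higher in the younger preparation, as given above; their part was not tested. The lower calls depend on scaling: with arrays centred on their median, Rfc3 was -0.73 and Prim1 -0.92 and neither was called. With quantile normalization, Rfc3 was -0.93 and not called, and Pcna was -0.17. Without replicate 1 of spermatogonia plus early spermatocytes, Rfc3 was -0.99. The median of all probe sets was -0.15 as deposited, 0.11 after quantile normalization and 0.22 after median centring, and the higher share of calls was 39.3%, 47.7% and 53%.

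**Figure D4:**
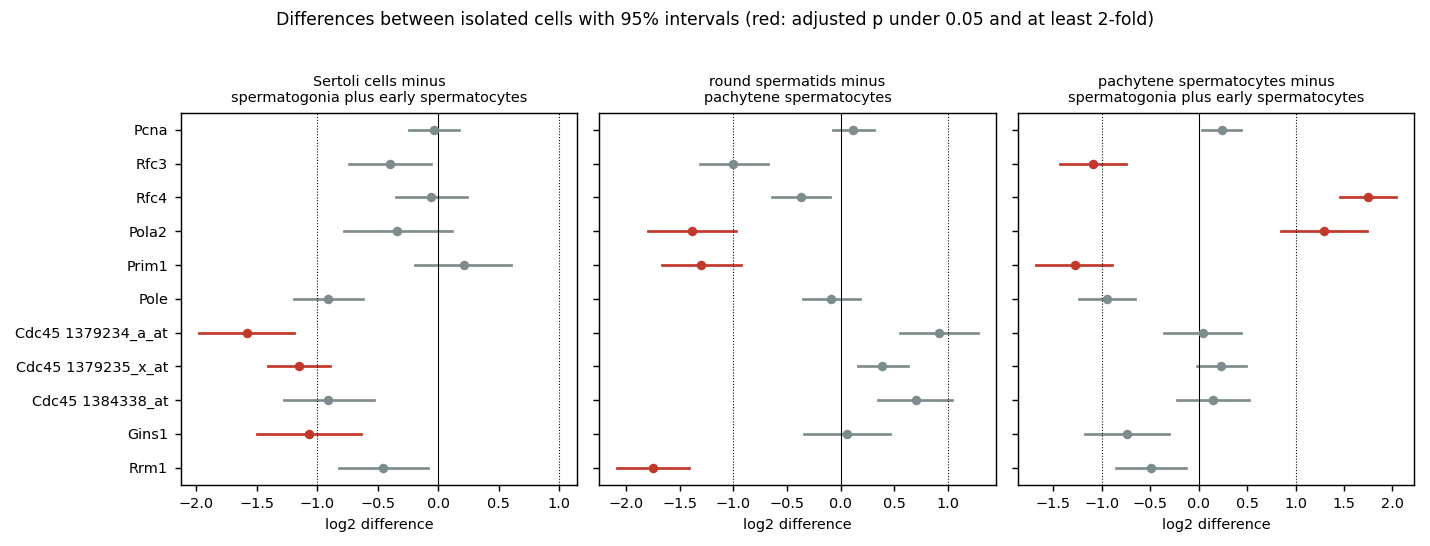
Log2 differences between isolated cell groups for the 11 tested probe sets, with 95% intervals; solid line at 0, dotted lines at 2-fold, and called differences in red. Pola2 and Prim1 are called in both germ cell comparisons, and Cdc45 only in Sertoli cells against spermatogonia plus early spermatocytes.

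Round spermatids had less Rrm1, Pola2 and Prim1 than pachytene spermatocytes. These 3 of 11 were called lower, where 13.1% of probe sets were. Rrm1 had 33.1, 30.6, 24.1 and 45.8 in round spermatids, against 120.4, 121, 126 and 119 in pachytene spermatocytes, the widest change (-1.75 ± 0.16, limma adjusted p = 4.18e-08). Pola2 had 97.5, 110, 66.7 and 122 in round spermatids, against 279.5, 249.8, 313 and 211 in pachytene spermatocytes (-1.38 ± 0.20, adjusted p = 1e-05). Prim1 had 51.5, 41.9, 57.7 and 74.7 in round spermatids, against 152, 158, 101 and 174 in pachytene spermatocytes (-1.30 ± 0.17, adjusted p = 5.07e-06). In none of the 3 did the groups overlap, which is a description only, as given above. The ratio of 3' to 5' Gapdh signal, also a measure of RNA quality, was 1.75 to 2.44 in round spermatids and 1.07 to 1.51 in pachytene spermatocytes, and its part in these differences was not tested.

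Rfc3, at 50.4 ± 7.44 in round spermatids and 105 ± 5.06 in pachytene spermatocytes (SD, n = 4 each), stayed just short of the 2-fold limit (limma, adjusted p = 1.94e-05), and its groups did not overlap. Rfc4 was lower by less (-0.37 ± 0.13, adjusted p = 0.024). No member was called higher, where 8.9% of probe sets were, and 3 were higher at an unadjusted p under 0.05, all of them Cdc45. For Cdc45, 1379234_a_at had 338 ± 22.1 in round spermatids and 178 ± 29 in pachytene spermatocytes (0.92 ± 0.17, adjusted p = 0.000254). The other probe sets of Cdc45 gave 0.39 ± 0.11 and 0.70 ± 0.16. Pcna had 1826 ± 54.6 in round spermatids and 1683 ± 161 in pachytene spermatocytes, a difference of 0.12 with a 95% interval of -0.07 to 0.31. Pole and Gins1 gave -0.09 and 0.06, with intervals of -0.35 to 0.18 and -0.34 to 0.46.

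Adult Sertoli cells held less Cdc45 and Gins1 than spermatogonia plus early spermatocytes, while the differences of Pcna and Prim1 were small, with the intervals that follow. By limma, 3 of 11 probe sets were called lower, where 24.9% were, and none higher, where 12% were. The lower count is thus near the share of all probe sets, and 2 of the 3 are the Cdc45 probe sets that carry the same accession. At an unadjusted p under 0.05, 0 were higher. Cdc45 1379234_a_at had 36.9, 57.1, 83.5 and 46.9 in Sertoli cells, against 169.6, 175 and 170.4 in spermatogonia plus early spermatocytes (-1.58 ± 0.19, adjusted p = 1.79e-06). Cdc45 1379235_x_at gave -1.15 ± 0.12, and 1384338_at gave -0.91 (limma, adjusted p = 0.000254), which was not called. Gins1 had 33.8, 30.8, 38.7 and 33.8 in Sertoli cells, against 83.9, 77.1 and 71.6 in spermatogonia plus early spermatocytes (-1.07 ± 0.20). None of the 3 called probe sets overlapped between the groups, again a description only. Prim1 was at 412 ± 36.1 in Sertoli cells, against 359 ± 60.9 in spermatogonia plus early spermatocytes (0.21, 95% interval -0.19 to 0.60). Pcna was at 1388 ± 66.7 in Sertoli cells, against 1424 ± 69.8 in spermatogonia plus early spermatocytes (-0.04, interval -0.24 to 0.17).

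Scaling bears on this comparison more than on any other, since the median array signal was 31.4 in Sertoli cells, against 49.6 in spermatogonia plus early spermatocytes. With arrays centred on their median, the median of all probe sets was 0.34 against -0.23 as deposited and -0.11 after quantile normalization. The higher share of calls was then 66.8%, against 32.5% and 49.3%. Under that centring only Cdc45 1379234_a_at was still called, and Pcna was 0.54, Rfc4 0.52, Pola2 0.24, Rfc3 0.17 and Rrm1 0.12. The Gins1 call was also lost after quantile normalization (-0.57) and with 16 added before log2 (-0.89). The Sertoli cell arrays held Leydig markers at 5730.2 to 7586 and peritubular myoid markers at 2185 to 5288, against 6508 to 9982 (Leydig) and 486 to 655 (myoid) in spermatogonia plus early spermatocytes. Macrophage and blood markers summed to 101 to 155 in Sertoli cells, against 1834 to 2325 in spermatogonia plus early spermatocytes. What these cells add to the member signals was not tested.

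Whole testis did not differ from the mean of the 10 tubule stages by a called amount in any member by limma (0 of 11, where 2.31% of 22504 probe sets were called higher and 1.2% lower). At an unadjusted p under 0.05, 4 were higher and 3 lower, without a share over all probe sets to set beside them. Pola2 had 143, 64, 82, 105 and 154 in whole testis, against a mean over the tubule stages of 87.2, a difference of 0.84 ± 0.24 (adjusted p = 0.00551). Without replicate 2 of whole testis it was 1.01 and was called. Rrm1 (0.70), Rfc3 (0.35) and Pcna (0.26) also passed the adjusted p upward, and Cdc45 1379234_a_at (-0.40) and 1379235_x_at (-0.41) downward. Whole testis holds interstitial cells besides tubules, with Leydig markers at 2121 to 2672. The share of higher calls among all was 65.9% as deposited and 73.3% or 78.6% under quantile normalization or median centring.

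The wider replication machinery was taken from a list of 49 other genes of polymerases, clamp loading, single-strand binding, origin licensing, nucleotide supply and chromatin assembly, without the Mcm2 to Mcm7 helicase. Of these, 40 had a probe set of 1 gene. The other 9 were not analysed here. In the tubules 15 of 34 tested genes were stage-regulated, against 37.7% of 11987 genes, with a median log2 range of 0.97 against 0.91 for all. Their peaks were spread: 6 in stage XIII-XIV, 4 in stage VIIa.b, and 1 each in I, VI, VIIc.d, VIII and IX-XI.

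Of the 6 with the widest range, 3 peaked in stage XIII-XIV and the others in stages I, VIIc.d and VIII. Rpa1, the large subunit of the single-strand binding protein, had 1462 ± 77.5 in stage XIII-XIV and 103 ± 17.2 in stage VI (13.7-fold, limma F-test, adjusted p = 1.33e-29), with its peak and low near those of Pola2. The origin recognition subunits Orc5 (4.34-fold) and Orc2 (2.93-fold) peaked in stages XIII-XIV and I, and Pole2, the accessory subunit of polymerase epsilon (2.88-fold), in stage XIII-XIV. Pold3, a subunit of polymerase delta, was at 1148 ± 90.8 in stage VIIc.d and 186 ± 35.2 in stage XIII-XIV (6.08-fold). Lig1, the ligase that joins Okazaki fragments, was at 285 ± 12.4 in stage VIII and 82.4 ± 28.6 in stage I (3.49-fold).

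**Figure D5:**
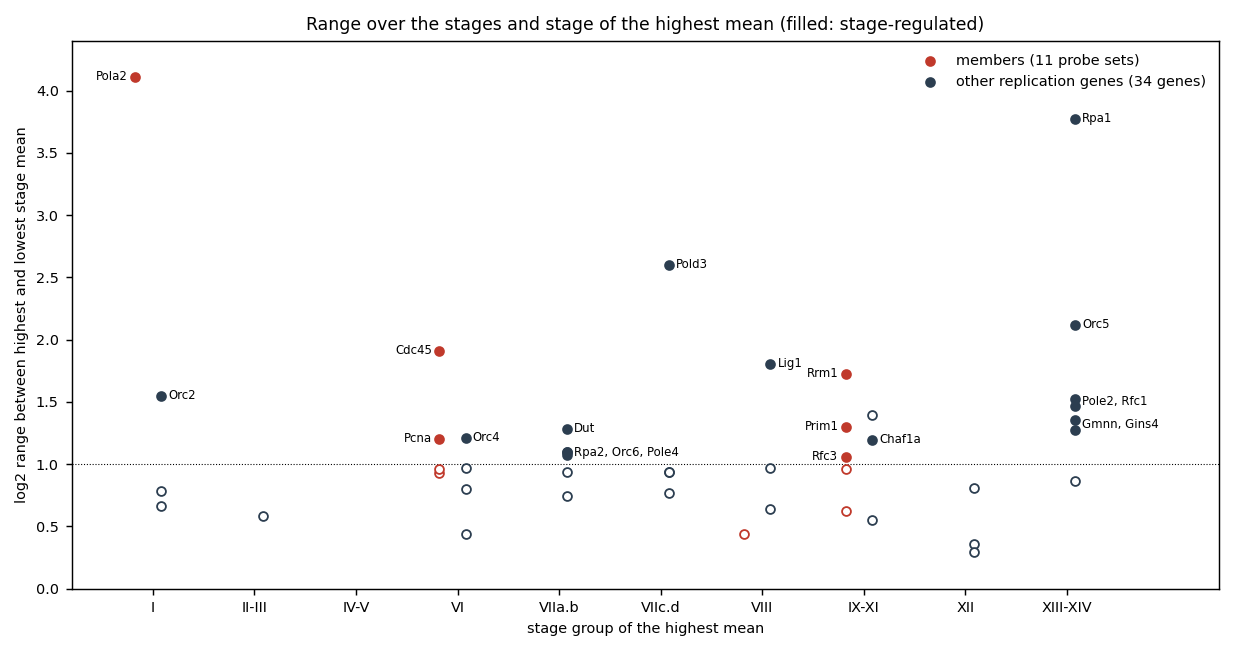
Log2 range between highest and lowest stage mean against the stage of the highest mean, for the 11 member probe sets (red) and 34 other replication genes (dark); filled points are stage-regulated and the dotted line is at 2-fold. Pola2 and Rpa1 have the widest ranges, at 4.11 and 3.77, and filled points occur at 7 of the 10 stages.

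Between pachytene spermatocytes and spermatogonia plus early spermatocytes, 11 of 37 tested genes of the list were called higher, against 21.2% of 11425 genes, and 15 lower, against 27.9%; their median was -0.57 against -0.10 for all. The split turned with scaling, with 13 higher and 13 lower after quantile normalization and 14 higher and 11 lower with arrays centred on their median. Rnaseh2a, a subunit of the nuclease that removes RNA from DNA, had 2291 in pachytene spermatocytes and 139.7 in spermatogonia plus early spermatocytes (3.98 ± 0.15). Orc3 (2.47), Rfc1, the large clamp loader subunit (2.44), Rpa1 (2.20), Prim2, the partner of Prim1 (1.80) and Orc5 (1.62) followed. Lower were Wdhd1 (-3.42), which links helicase and polymerase alpha, Rpa3 (-3.30), the licensing factor Cdt1 (-3.15), thymidylate synthase Tyms (-2.37), the clamp loader subunit Rfc5 (-2.14) and Pola1, the catalytic subunit of polymerase alpha (-2.09). Of the clamp loader subunits, Rfc1, Rfc2 (1.20) and Rfc4 were called higher and Rfc3 and Rfc5 lower. Of the single-strand binding protein, Rpa1 was called higher and Rpa2 (-1.97) and Rpa3 lower. Of the primase, Prim2 was called higher and Prim1 lower. The calls of Rfc3 and Prim1 were lost with arrays centred on their median, as given above. Pola1 and Tyms passed the filter on low signals only through the 3 samples of spermatogonia plus early spermatocytes, so that they had to differ. Cdt1 and Clspn had 4 samples above that limit, all of this preparation or of Sertoli cells. They too passed only with the help of these 3 samples. All of these genes remain in the count of 15 lower. Pola1 had 3.33 to 12.1 in pachytene spermatocytes and 52.2 to 56.4 in spermatogonia plus early spermatocytes. The pachytene means of Wdhd1 (6.7), Cdt1 (6.8), Tyms (9.05) and Pola1 (9.29) were not shown to lie above background, and their differences depend on the constant added.

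Between early and late stages, 1 of 34 tested genes of the list was called higher (4.96% of genes), which was Pold3 (1.09), and 2 lower (4.15%), Orc5 (-1.14) and Rpa1 (-1.56). Whole testis against tubules gave 0 of 34 by limma, where 2.23% of genes were called higher and 0.852% lower. At an unadjusted p under 0.05, 7 of the list were higher and 5 lower, without a share over all genes to set beside them.

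In round spermatids against pachytene spermatocytes, 1 of 37 was called higher (11.1% of genes) and 7 lower (12.4%). Pold3 was the one higher (1.54 ± 0.09), with 884 in round spermatids and 301 in pachytene spermatocytes. The licensing inhibitor Gmnn (-1.66), Orc5 (-1.54), the chromatin assembly subunit Chaf1a (-1.19), Pole4 (-1.16), Gins4 (-1.14) and the dUTPase Dut (-1.05) were among the lower. In Sertoli cells against spermatogonia plus early spermatocytes, 2 were higher (12% of genes), Rnaseh2a (1.60) and Rfc1 (1.19), and 6 lower (21.3%). The lower ones were the fork protection factors Tipin (-1.80) and Clspn (-1.38), Mcm10 (-1.21), Pole2 (-1.17), Cdt1 (-1.06) and Rpa3 (-1.03). Of these, Clspn and Cdt1 passed the filter only with the help of spermatogonia plus early spermatocytes, as given above. With arrays centred on their median, 2 were called higher and 1 lower.

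The genes most like each member were sought by Pearson's r over the 14 group means of stages and isolated cells, among 14479 probe sets. Pcna was most like Cenpj, a centriole protein (r = 0.955), and Zfp513 (0.947). Cdc45 was most like Saxo1, which binds microtubules of the axoneme (0.977), and Oacyl (0.970). Rfc3 was nearest to Aga (0.973) and Gltp (0.972), Prim1 to Hsd17b4 (0.976) and Osbpl2 (0.973), and Rrm1 to Psmd14, a proteasome subunit (0.973), and Rtn4 (0.963). The nearest to Rfc4 were 2 mitochondrial ribosome genes, Mrps18c (0.982) and Mrps22 (0.977), and those to Pola2 were Erlin1 (0.981) and Timmdc1 (0.980). Pole was nearest to Pygo2 (0.941) and Snx15 (0.936), and Gins1, at the lowest r, to Egfr (0.898) and Apol3-ps1 (0.884). None of the 18 was a member or a gene of the replication list.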

How the data were processed

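Per the labels, RNA extracted with Trizol and RNeasy was hybridised as biotinylated cRNA, 1 array per sample, and the submitters' processing notes name MAS5. The deposited values are signal intensities on a linear scale. In them the mean without the outer 2% at each end was 99.99 on every array; no source used here states the scaling or gives detection calls. Of 31099 probe sets, 57 controls were left out. The platform table paired 20826 with 1 gene, 436 with several and 9780 with none; 20760 symbols were matched to a RefSeq table of GRCr8 and 66 kept.

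Log2 of the signal plus 5.11 was tested in R 4.3.3 with limma 3.58.1 (moderated statistics with a variance trend) over all probe sets passing the filter, p-values being adjusted by Benjamini-Hochberg within each contrast. A call needed an adjusted p under 0.05 and at least 2-fold. The share of all probe sets at an unadjusted p under 0.05 was not computed, so counts at that limit cannot be set against it. The fits held 49 tubule samples, 15 isolated cell samples, or 49 tubule and 5 whole testis samples. The scripts were tested on simulated data.

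Members, gene lists and tests were chosen with earlier results of these data known. Named from the replication list were the 6 called genes with the widest stage range and up to 6 per direction of each cell comparison, each gene by its probe set of highest mean. Promoter words were matched on both strands. Alternatives varied the added constant, filter, scaling, variance model, samples and call rule. Per the labels, tubule samples were independent pools, but they do not say whether the isolated cell samples came from separate animals, so that p-values there may measure technical spread. The number of arrays limits the precision.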

Additional observations from a re-analysis of the deposited data

Results flagged for a closer look

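In 8 of the 168 combinations of probe set and group tested, 1 sample lay far from the others by Dixon's criterion. The criterion was not adjusted for the number of combinations. A count of 8 in 168 was not shown to exceed what it flags in groups without an outlying sample. The combinations are not independent, since probe sets share arrays, and most of these samples were replicate 1 of their group. Pcna was high in replicate 1 of stage I (1509, the others 1126 to 1234) and in replicate 1 of stage VIIa.b (2673, the others 2103 to 2264). Rfc4 was high in replicate 1 of stage XIII-XIV (1345, the others 1027 to 1039). Cdc45 1379234_a_at was high in replicate 1 of stage VIIa.b (490.3, the others 362 to 396), and Cdc45 1379235_x_at in replicate 1 of pachytene spermatocytes (312, the others 262 to 270). Cdc45 1384338_at was low in replicate 3 of stage XII (14.4, the others 40.9 to 44.5). Gins1 was high in replicate 3 of stage IV-V (54.7, the others 36 to 39) and low in replicate 1 of pachytene spermatocytes (28.4, the others 49.5 to 52.6).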

How the results depend on the processing

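Of 476 recomputed counts, 456 stayed within 1.5 times the reported one and 20 did not. Most of the 476 came from leaving out 1 sample rather than from a change of processing. Among those, only the member counts for early against late stages and for whole testis moved, each in 1 setting. The rest of the 20 came from the changes of processing, so the pooled share overstates how stable the counts were to processing. Without a minimum fold, 10 members were called for stage regulation (54.3% of all probe sets) and 9 for early against late stages (42.6%). Over the 10 adjacent steps together, member tests gave 18 calls. Members called numbered 8 for pachytene spermatocytes against spermatogonia plus early spermatocytes and 8 for round spermatids against pachytene spermatocytes. They numbered 7 for Sertoli cells against spermatogonia plus early spermatocytes and 6 for whole testis. The replication list gave 25 for stages, 18 for round spermatids and 24 for Sertoli cells. For all but the first 2 counts, the share of all probe sets or genes under this rule is not given, so they cannot be set against it. With 1 added before log2, 2 members were called in early against late stages. With 16 added, the list gave 5 in round spermatids and 5 in Sertoli cells; a filter at 100 gave 5 in Sertoli cells, and quantile normalization 4 in round spermatids. With arrays centred on their median, 2 members were called in pachytene spermatocytes, 1 in Sertoli cells, and 3 of the list (2 higher, 1 lower) in Sertoli cells. Signs turned for Pcna under quantile normalization, in pachytene spermatocytes (-0.17) and round spermatids (-0.14), and under median centring in Sertoli cells for Pcna (0.54), Rfc3 (0.17), Rfc4 (0.52) and Rrm1 (0.12), each with an adjusted p under 0.05 in one of the settings compared. Without that, signs also turned for Pole in round spermatids under quantile normalization (0.06), and under median centring for Pola2 in Sertoli cells (0.24) and Prim1 in whole testis (0.05). The cause was not tested. Leaving out 1 sample gave 6 to 7 stage-regulated members and 14 to 16 of the list, 1 to 2 for early against late stages (2 without stage IX-XI replicate 1), 3 over adjacent stages, 3 to 5 members and 25 to 27 of the list in pachytene spermatocytes, 3 to 4 and 6 to 9 in round spermatids, 3 and 7 to 11 in Sertoli cells, and 0 to 1 in whole testis (1 without whole testis replicate 2). With the replicate number as a block, the counts were 6, 1, 3, 4, 3, 3 and 0 for the members in the order above and, for the list, 15 over the stages, 27 in pachytene spermatocytes, 8 in round spermatids and 8 in Sertoli cells. Same-numbered tubule samples of different stages correlated at -0.10 to 0.23 in their deviations (mean 0.06, 41 of 216 pairs over 0.1). Samples of other numbers correlated at -0.16 to 0.13 (mean -0.01, 6 of 864 pairs over 0.1). Of 49 samples, 36 correlated best with their own number. Same-numbered samples thus shared some variation, which the main fits did not model, but the numbers were not shown to pair samples. The few arrays per group, and Pola2, Rrm1 and Gins1 signals near or under the table's median, limit what can be resolved.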
